A study of Danio rerio with 9 samples.

Results

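The nuclear genes of the respiratory chain were followed across 9 arrays of whole zebrafish larvae. They were defined as all genes whose RefSeq symbol begins with one of 12 prefixes, namely nduf, sdha, sdhb, sdhc, sdhd, uqcr, cox4, cox5, cox6, cox7, cox8 and atp5. The arrays carried 155 probes for 89 such genes, out of 13443 genes with a symbol. RefSeq lists 109 genes under these prefixes, and the 20 without a probe on these arrays, among them cox4i1l, cox5ab, cox5bb, cox8a, cox8b and ndufv3, were not measured. By name, 37 genes fell to complex I, 5 to complex II, 7 to complex III, 15 to complex IV (cytochrome c oxidase) and 18 to ATP synthase, and 7 were assembly factors of complexes I and II. The ndufa4 paralogs were kept with complex I by their name, although the mammalian protein is a subunit of complex IV. None of the 13 subunits encoded in mitochondrial DNA was paired with a probe by symbol, so the values below describe the nuclear side of the chain.

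The respiratory chain sits in the inner membrane of mitochondria. Complex I takes electrons from NADH and complex II, which is also the succinate dehydrogenase of the citric acid cycle, takes them from succinate. Complex III passes them on to cytochrome c and complex IV to oxygen, while complexes I, III and IV pump protons whose return drives ATP synthase. Complex II is the only one of these complexes built without any subunit from mitochondrial DNA. Muscle and brain of a swimming larva draw much of their ATP from this chain.

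RNA was extracted from the whole body of TL strain larvae at 6 dpf (days post fertilization). DKO larvae carried nonsense alleles of zPer2 and zCry1a, which encode repressors of the circadian clock, made with TALEN nucleases. TKO larvae carried in addition a mutation of zCry2a, another cryptochrome, made with CRISPR/Cas9 in DKO embryos, and WT larvae carried none. All were raised in constant darkness, and larvae of each genotype were then kept in darkness, or given 3-h light or 12-h light. Larvae were taken 12 h after light onset according to the legend for DKO larvae, so those of 3-h light were by then back in darkness. There was 1 array for each of the 9 combinations, how many larvae each sample held is not given in the sources used here, and nothing marks any samples as separate cultures. The p-values below therefore measure only the spread that the genotype and lighting terms leave between arrays.

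The share of spots well above background lay between 85.9% and 89.8% and the 75th percentile of the signal between 547.0 and 635.7, and all 155 probes were well above background on all 9 arrays. Levels are given as log2 signal minus the 75th percentile of the array, averaged over the probes of a gene. Probes differ in how strongly they bind, so a level ranks arrays for 1 gene and does not rank genes. The SD between spots of 1 probe was 0.146 log2, or 0.207 for a ratio of 2 arrays. Each genotype filled 1 slide, and darkness, 3-h light and 12-h light took the same positions on each slide apart from DKO 12-h light, so genotype cannot be told apart from slide, nor lighting from position. At 12-h light per2, the gene of zPer2 and a light-induced clock gene, was at -1.68 in DKO, -1.71 in TKO and -2.0 in WT larvae, against -5.91, -5.92 and -5.79 in darkness. cry1a was lower on the DKO and TKO arrays than on the WT array of each lighting, and cry3a, which RefSeq gives as the symbol of zCry2a, was lowest in TKO larvae under each lighting. Where the probes lie relative to the mutations is unknown, so these signals check the genotype labels only in part.

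The TKO dark array stood apart from the others over the whole array, being the highest of the 9 for 29.5% of all genes and the lowest for 36.3%. Among the respiratory chain genes it was mostly the highest. In darkness, 3-h light and 12-h light, the median level of the 89 genes was 4.68, 3.67 and 3.58 in TKO larvae. It was 3.78, 3.63 and 3.43 in DKO larvae and 3.94, 3.7 and 3.72 in WT larvae. The median over all genes tested stayed between -1.49 and -1.42 on all 9 arrays. The TKO dark array was the highest of the 9 for 78 of the 89 genes, against 29.5% of all genes, and for 125 of the 155 probes, and the lowest for 4 genes. It lay at least 1.5-fold above the highest other array for 51 genes, against 9.04% of all genes. Against the mean of the other 8 arrays its median excess was 0.99 log2 for these genes and -0.06 for all genes, with single genes between -0.38 and 1.93. The median excess was 0.77 with quantile normalization, 0.78 with normexp background correction, 0.89 in the deposited table and 1.12 with median scaling. No array here has a replicate. TKO dark was singled out after its values were seen, and each result below that rests on it is also given without it. Leaving it out also narrows the spread left by the model. The adjusted p-values of the fit without TKO dark do not account for this choice.

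**Figure D1:**
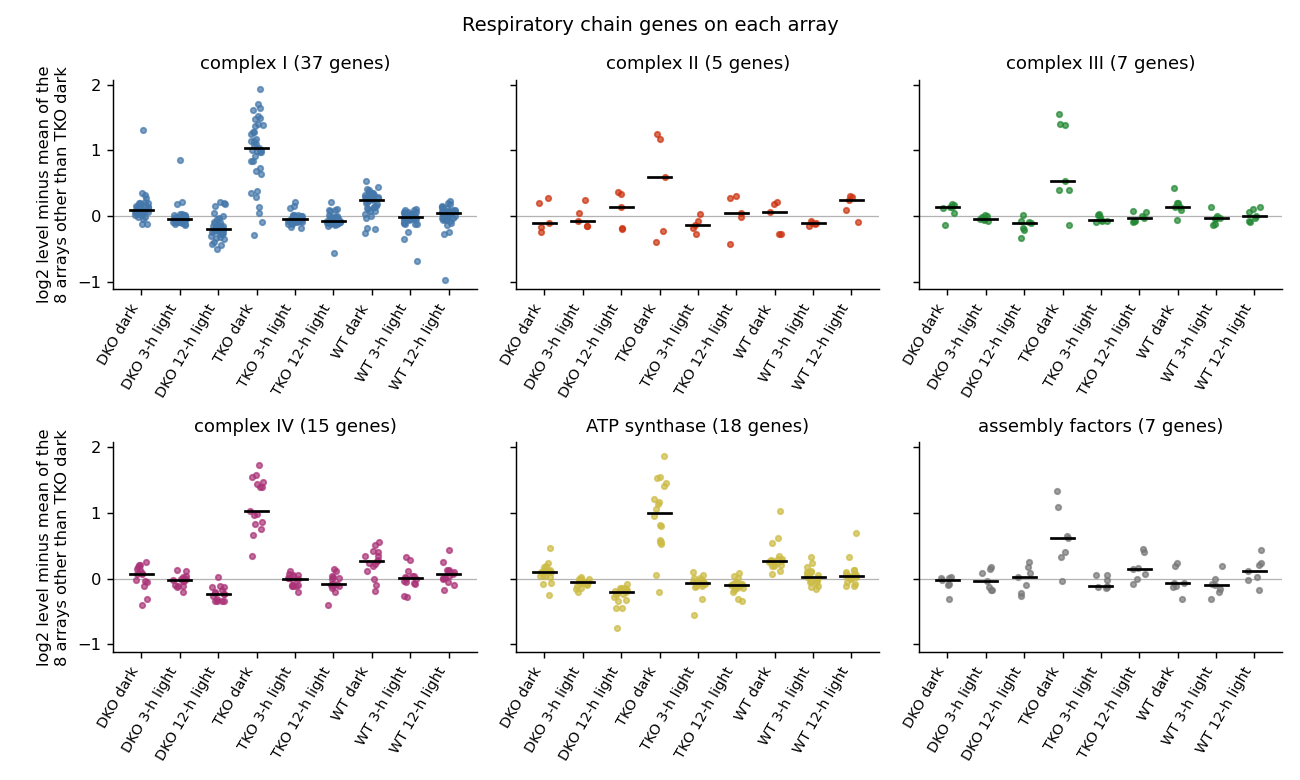
Level of each respiratory chain gene on each array, as log2 difference from the mean of the 8 arrays other than TKO dark, in 1 panel per complex. Points are genes and bars are medians; most TKO dark points sit above the others in each panel, with a median excess of 0.99 over all 89 genes, while a few genes such as sdha stay below 0 there.

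The excess was uneven among the roles of the subunits, which were grouped after these values were seen, so the contrasts between groups are a description. In complex I, 28 of 29 accessory subunits, which surround the catalytic core, were highest on the TKO dark array, with a median excess of 1.14. Of the 8 core subunits, which carry the flavin, the iron-sulfur clusters and the ubiquinone site, 4 were highest there, with a median of 0.56. The accessory subunit ndufc1 had the largest excess of all genes in the chain, 1.93 log2 or 3.81-fold. Its level was 4.86, 2.92 and 2.92 in TKO larvae in darkness, 3-h light and 12-h light, against 3.07, 2.83 and 2.42 in DKO larvae and 3.33, 2.95 and 2.99 in WT larvae. TKO dark lay above the range of the rest, and DKO 12-h light below it by less. The core subunit ndufv1, which binds NADH and the flavin, went the other way. Its level was 1.55 in TKO dark, the lowest of the 9, against 1.72 in DKO dark and 1.81 in WT dark. The core iron-sulfur protein ndufs1 was at 2.83, 3.0 and 2.99 in TKO, DKO and WT darkness, differences below the spread of a ratio between spots.

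Complex II was split between its catalytic and its membrane part. sdha, the flavoprotein that oxidises succinate, had an excess of -0.38 and sdhb, its iron-sulfur partner, of -0.23, so both lay below the mean of the other arrays on TKO dark. The 3 membrane anchors that bind ubiquinone were all highest there, with 1.24 for sdhc, 1.17 for sdhdb and 0.59 for sdhda. In complex III the Rieske iron-sulfur protein uqcrfs1 and the core protein uqcrc1 each had an excess of 0.4, uqcrc2b 0.54 and uqcrc2a -0.14, while the 3 small subunits uqcrh, uqcrb and uqcrq had 1.39, 1.4 and 1.56. All 15 complex IV genes were highest on TKO dark, from cox4i2 with 0.34 to cox7b with 1.73. The isoforms that mammals use in heart and skeletal muscle were among them, with 0.66 for cox6a2 and 1.39 for cox7a1, beside 0.86 for cox6a1 and 1.55 for cox7a2a, and the general isoform cox4i1 had 1.03. In ATP synthase the head had the lowest group median, 0.3, with -0.2 for the alpha subunit atp5fa1 and 0.05 for the beta subunit atp5f1b. Its gamma and delta subunits atp5f1c and atp5f1d each had 0.56 and were highest on TKO dark. The c ring genes atp5mc1, atp5mc3a and atp5mc3b had 1.54, 0.95 and 0.59, and the genes of inhibitory factor 1, atp5if1a and atp5if1b, had 0.81 and 1.42. The 9 peripheral stalk and other membrane subunits were all highest there, with a median of 1.17, and atp5md reached 1.87.

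**Figure D2:**
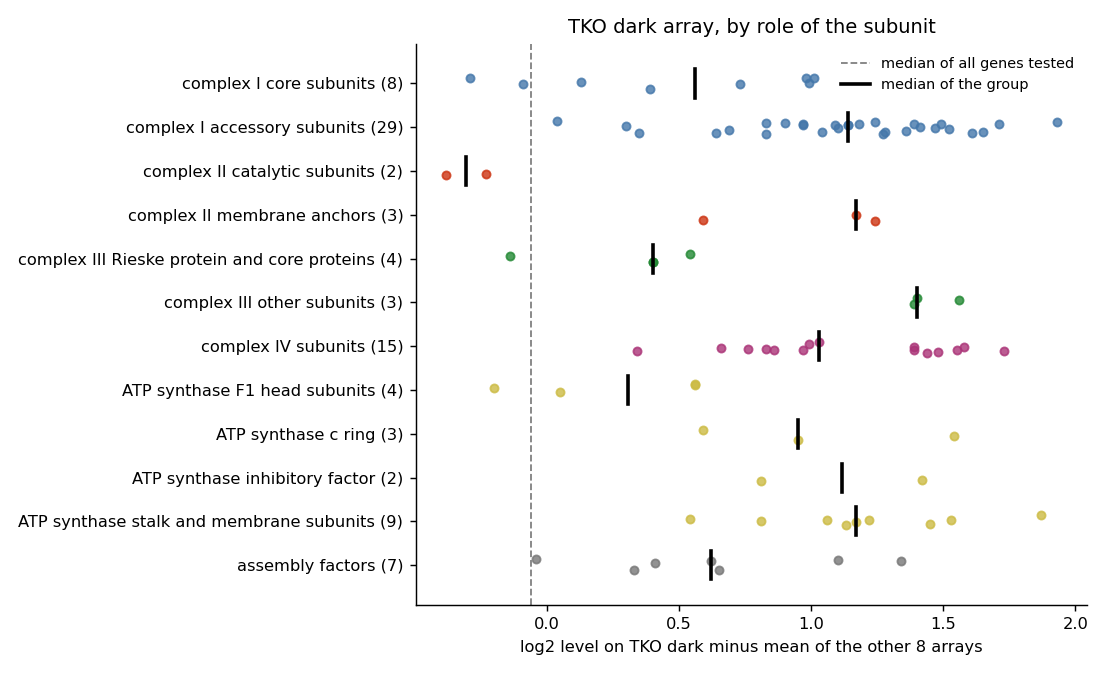
Excess of the TKO dark array over the mean of the other 8 arrays (log2, x axis) for each gene, grouped by the role of its subunit. The groups were drawn after these values were seen. Points are genes, black bars group medians and the dashed line the median of all genes at -0.06; sdha and sdhb lie left of 0, and the group medians of complex I accessory subunits and of ATP synthase stalk and membrane subunits lie at 1.14 and 1.17.

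As ratios of single arrays, 25 of the 89 genes were at least 2-fold higher and 0 at least 2-fold lower in TKO dark than in WT dark, against 5.76% and 1.04% of all genes, with a median of 0.83 log2. Against DKO dark, 38 were at least 2-fold higher and 0 lower, against 5.89% and 0.498% of all genes, with a median of 0.94. At a threshold of 1.5-fold, 56 and 65 genes were higher in TKO dark than in WT dark and DKO dark, against 15.3% and 15.2% of all genes. Under light the median ratio of TKO over WT arrays was near 0. Single genes lay between -0.9 and 0.53 log2 at 3-h light and between -1.0 and 0.41 at 12-h light. TKO 3-h light over WT 3-h light gave 0 genes higher or lower by 2-fold, against 1.04% and 0.609% of all genes, with a median of -0.03. TKO 12-h light over WT 12-h light gave 0 as well, against 1.33% and 0.799%, with a median of -0.10. At such shares of all genes, a count of 0 among the 89 does not set the chain apart. DKO dark over WT dark gave 1 gene higher (ndufs8b) and 1 lower (atp5mea) by 2-fold, against 1.1% and 0.65% of all genes, with a median of -0.14.

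Some other gene lists also shifted on the same TKO dark array, which was the highest of the 9 for 29.5% of all genes. The median excess of all genes there was -0.06. Mitochondrial ribosomal proteins, which translate the subunits encoded in mitochondrial DNA, had a median excess of 0.93 with 58 of 65 genes highest there, and cytosolic ribosomal proteins 0.58 with 76 of 83. Assembly factors of the chain outside the prefixes had 0.65 with 25 of 33 genes highest. Genes of the citric acid cycle and pyruvate dehydrogenase had -0.01 with 4 of 20, glycolysis -0.09 with 6 of 31, carriers of ATP and phosphate, porins, kinases of creatine and adenylate and uncouplers -0.01 with 5 of 19, and regulators of mitochondrial genes -0.11 with 2 of 12. Among tissue markers, skeletal muscle had a median excess of -0.02 with 2 of 10 genes highest, heart 0.72 with 4 of 5, liver 0.31 with 2 of 6, red blood cells 0.35 with 3 of 5, neurons -0.18 with 1 of 5, exocrine pancreas -0.13 with 0 of 6 and ionocytes -0.24 with 0 of 6. In RNA from whole larvae, fewer cells of a type and less RNA per cell cannot be told apart. The part of these shifts in the excess of the respiratory chain was not tested.

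The light comparisons asked how the genes differed between lit and dark larvae over the 3 genotypes. At 12-h light the catalytic genes of complex II and ndufv1 of complex I rose, 18 genes of complexes I, III and IV and of ATP synthase fell, and 68 of the 89 genes did not pass. In limma's additive model of genotype and lighting on all 9 arrays, with Benjamini-Hochberg adjustment over the 12915 genes tested, 3 of the 89 genes were higher and 18 lower at 12-h light than in darkness, against 15.9% and 14.1% of all genes. The median difference was -0.52 log2 for the chain and 0.03 for all genes. Without the TKO dark array, 6 were higher and 44 lower, against 18.5% and 17.6% of all genes, with medians of -0.23 and 0.02, and the 21 genes called on 9 arrays were all called again. The count was 12 without DKO dark, 9 without WT dark or DKO 3-h light, 5 without WT 3-h or 12-h light, and 3 without DKO 12-h or TKO 12-h light. sdha, sdhb and ndufs8b passed the threshold whichever array was left out, and the other 18 lost it without DKO 12-h or TKO 12-h light.

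sdha was at 1.16, 1.26 and 1.78 in DKO larvae, 1.02, 1.28 and 1.72 in TKO larvae and 1.14, 1.3 and 1.65 in WT larvae, in darkness, 3-h light and 12-h light. The 3 values of 12-h light were the highest in each genotype and did not overlap with the dark ones. The difference between 12-h light and darkness was 0.61 ± 0.07 log2 (SE; limma, adjusted p = 0.00304), or 1.53-fold. sdhb was at 2.84, 2.86 and 3.35 in DKO, 2.78, 2.82 and 3.28 in TKO and 2.74, 2.89 and 3.29 in WT larvae. It showed the same order, and rose by 0.52 ± 0.06 log2 (limma, adjusted p = 0.00365). Against 3-h light, 12-h light gave 0.45 ± 0.06 for sdhb (limma, adjusted p = 0.0457) and 0.44 ± 0.07 for sdha (adjusted p = 0.0619). Without TKO dark both passed, with adjusted p = 0.0147 and 0.0176. The call of sdhb on 9 arrays was lost without any one of the other 8 arrays.

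The same shape was seen in the assembly factor sdhaf2, which in yeast and humans attaches the flavin to the catalytic subunit. It was at 0.67, 0.81 and 1.24 in DKO larvae, 1.61, 0.85 and 1.44 in TKO larvae and 0.67, 0.78 and 1.42 in WT larvae. The TKO dark value was the highest of the 9, whereas in DKO and WT larvae 12-h light was. Without TKO dark, sdhaf2 rose by 0.67 ± 0.07 log2 at 12-h light (limma, adjusted p = 0.00277) and by 0.55 ± 0.06 over 3-h light (adjusted p = 0.0145). sdhaf4, another factor for the flavoprotein, was at -0.75, -0.9 and -0.55 in DKO, 0.37, -0.84 and -0.31 in TKO and -0.79, -1.03 and -0.61 in WT larvae. Its difference at 12-h light was 0.22 ± 0.06 without TKO dark (limma, adjusted p = 0.0423). Neither assembly factor passed on all 9 arrays, where the difference of sdhaf2 was 0.39 ± 0.19 (adjusted p = 0.165). The membrane anchors of complex II did not follow the catalytic genes. sdhdb fell by 0.32 log2 at 12-h light without TKO dark (limma, adjusted p = 0.0284), and sdhc and sdhda passed in neither fit.

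In complex I, ndufv1 was the one subunit that rose. It was at 1.72, 1.71 and 1.99 in DKO, 1.55, 1.66 and 1.93 in TKO and 1.81, 1.87 and 2.07 in WT larvae, a difference of 0.3 ± 0.06 at 12-h light (limma, adjusted p = 0.0184). On 9 arrays 7 of the 37 complex I genes fell at 12-h light, against 14.1% of all genes. Without TKO dark 19 did, against 17.6%. The dim core subunit ndufs8b, an iron-sulfur protein, changed most. It was at -2.38, -2.84 and -3.51 in DKO, -2.69, -3.86 and -4.26 in TKO and -3.66, -4.38 and -4.67 in WT larvae, lower with each longer lighting. The difference at 12-h light was -1.24 ± 0.14 log2 (limma, adjusted p = 0.00316). Its 2 probes gave -2.22 and -0.94 for TKO 12-h light over TKO dark, so the size of this change depends on the probe. The paralog ndufs8a changed less, with single-array log2 ratios of 12-h light to darkness of -0.12 in DKO, -0.4 in TKO and -0.12 in WT larvae. The accessory subunit ndufc2 was at 4.06, 3.63 and 3.29 in DKO, 5.44, 3.74 and 3.58 in TKO and 4.26, 3.63 and 3.68 in WT larvae. Dark larvae had the highest value in each genotype, and ndufc2 fell by 1.07 ± 0.26 log2 (limma, adjusted p = 0.0282), or by 0.67 ± 0.09 without TKO dark (adjusted p = 0.00548). ndufa4b, ndufb2, ndufa8, ndufa13 and ndufa10 fell by 0.52 to 0.7 log2 on 9 arrays.

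In ATP synthase, atp5mc1 fell most. This gene encodes a c subunit, which forms the rotating ring of the motor. It was at 5.44, 4.82 and 4.52 in DKO, 6.52, 4.86 and 4.85 in TKO and 5.6, 4.84 and 4.87 in WT larvae. All lit arrays lay below all dark arrays, by 1.11 ± 0.21 log2 at 12-h light (limma, adjusted p = 0.0126), or 0.8 ± 0.09 without TKO dark (adjusted p = 0.00308). A second c subunit gene, atp5mc3a, fell by 0.6 log2 (limma, adjusted p = 0.0223), while the third, atp5mc3b, ranged from 6.24 to 6.51 on the 8 arrays other than TKO dark and passed in neither fit. The subunits atp5f1b (beta), atp5f1c (gamma) and atp5f1d (delta) fell by 0.21, 0.36 and 0.4 log2 and the peripheral stalk subunit atp5pb by 0.39 log2. Without TKO dark, 13 of the 18 ATP synthase genes fell and 0 rose, against 17.6% and 18.5% of all genes.

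In complex III the Rieske protein uqcrfs1 and the core proteins uqcrc1 and uqcrc2b fell by 0.29, 0.31 and 0.31 log2 at 12-h light (limma, adjusted p = 0.0372, 0.0304 and 0.04). The second core protein paralog, uqcrc2a, was between 3.72 and 3.99 on all 9 arrays and passed in neither fit. In complex IV, cox6b1, which faces the intermembrane space, and cox6a1 fell on 9 arrays, against 14.1% of all genes lower. Without TKO dark 7 of the 15 genes fell, against 17.6%. cox6b1 was at 3.48, 3.22 and 2.88 in DKO, 4.67, 3.2 and 3.15 in TKO and 3.58, 3.14 and 3.17 in WT larvae, and its difference was -0.84 ± 0.24 log2 (limma, adjusted p = 0.0419), or -0.49 without TKO dark (adjusted p = 0.0137). cox6a1 fell by 0.55 log2 (limma, adjusted p = 0.0384). The isoforms cox4i1, cox5aa, cox5b2, cox6a2, cox6b2, cox7a1 and cox7a2l passed in neither fit for 12-h light, while cox5ba and cox7a2a fell by 0.23 and 0.4 log2 without TKO dark. cox4i2, an isoform that mammals express mainly in lung and in cells short of oxygen, did not follow these falls. It was at 1.58, 2.09 and 1.87 in DKO, 2.32, 2.1 and 1.89 in TKO and 1.79, 2.26 and 2.23 in WT larvae. Its values were higher in light than in darkness in DKO and WT larvae and lower in TKO larvae. Without TKO dark it rose by 0.5 ± 0.07 log2 at 3-h light (limma, adjusted p = 0.0133) and by 0.35 ± 0.07 at 12-h light (adjusted p = 0.0139).

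**Figure D3:**
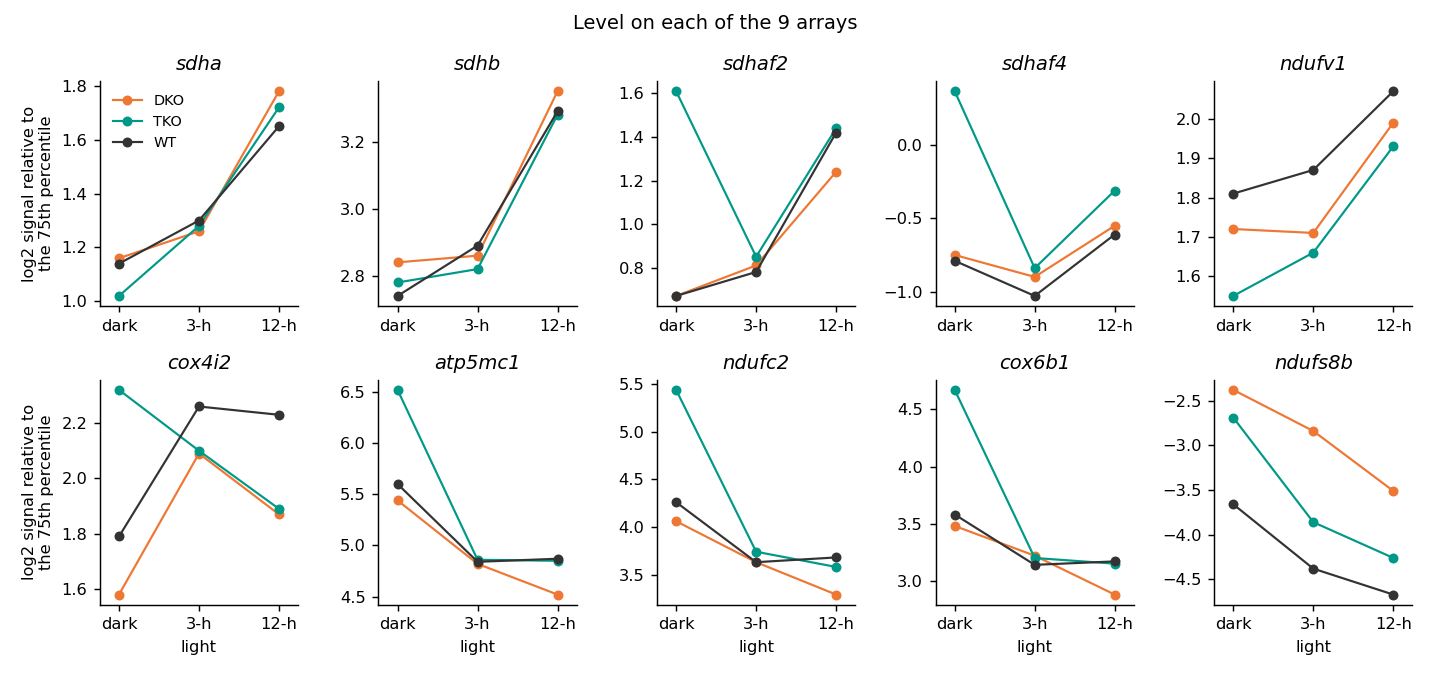
Level (log2 signal minus the 75th percentile of the array, y axis, scaled separately in each panel) of 10 genes in darkness, 3-h light and 12-h light, with 1 line per genotype. sdha and sdhb are highest at 12-h light in all 3 genotypes, while atp5mc1, ndufc2 and ndufs8b are highest in darkness in all 3.

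At 3-h light, 12 h after onset, the changes were fewer. On 9 arrays atp5mc1, ndufs8b and ndufa4b were lower than in darkness by 1.01, 0.78 and 0.71 log2 (limma, adjusted p = 0.0316, 0.0245 and 0.0471) and 0 genes were higher, against 5.95% and 6.55% of all genes. The median over the chain was -0.49 log2 and over all genes 0.04. Without TKO dark, 17 genes were lower and 1 (cox4i2) higher, against 8.7% and 9.55% of all genes, with medians of -0.2 and 0.04. The count of 3 became 1 or 0 without any one of the other 8 arrays. Between 12-h and 3-h light the calls without TKO dark were 4 genes, all of complex II or its assembly (sdha, sdhb, sdhaf2 and sdhaf4), and all higher at 12-h light, against 2.16% of all genes higher. On 9 arrays sdhb alone passed, against 0.503% of all genes. The 3-h and the 12-h comparison share their dark arrays, so their values are not independent.

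**Figure D4:**
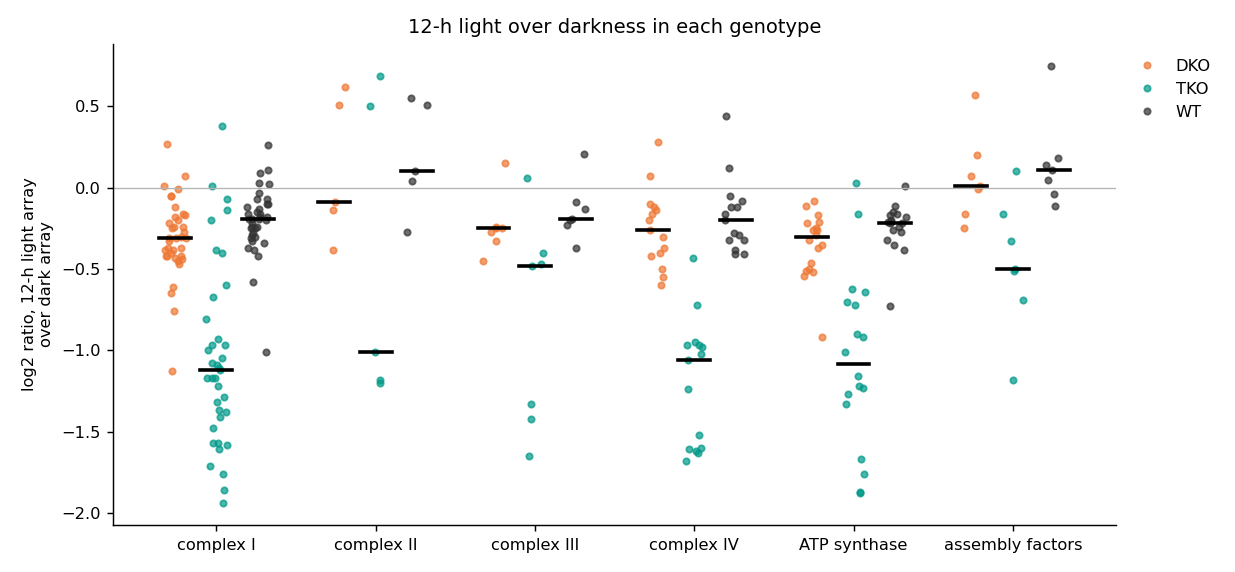
Log2 ratio of the 12-h light array over the dark array (y axis) for each gene, by complex and genotype. Points are genes and bars medians; the medians for complex I are -0.31 in DKO, -1.12 in TKO and -0.19 in WT larvae, and the 2 complex II points above 0 in TKO larvae are sdha and sdhb.

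Within genotypes, the ratio of the 12-h light array to the dark array had a median of -0.26 log2 over the chain in DKO, -1.06 in TKO and -0.19 in WT larvae. In TKO larvae 49 genes were at least 2-fold lower at 12-h light, against 7.73% of all genes, and 1 gene each in DKO and WT larvae, against 1.64% and 1.32% of all genes. Complex by complex, the medians in DKO, TKO and WT larvae were -0.31, -1.12 and -0.19 for complex I, -0.25, -0.48 and -0.19 for complex III, -0.26, -1.06 and -0.2 for complex IV and -0.3, -1.08 and -0.21 for ATP synthase. For complex II they were -0.09, -1.01 and 0.1, and for the assembly factors 0.01, -0.5 and 0.11. The difference in light response was tested in a model that took both lit arrays of a genotype together, with Benjamini-Hochberg adjustment in limma. It called 0 of the 89 genes for TKO against WT larvae and 0.0% of all genes, with 70 genes at an unadjusted p under 0.05, against 25.4% of all genes. The lowest adjusted p was 0.0558, and the median difference was -0.86 log2. With other settings it called 29 genes over those above background on all 9 arrays, 30 with normexp, 52 with median scaling and 57 with the trend and robust options, against 1.9%, 4.44%, 5.11% and 6.81% of all genes. Without DKO 3-h or without DKO 12-h light it called 42, against 4.22% of all genes. For DKO against WT larvae it called 0 genes, with 0 at an unadjusted p under 0.05, against 2.59% of all genes. The dark arrays enter this model singly, so the TKO difference rests on TKO dark.

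Some tissue markers also moved with lighting. Without TKO dark, 18.5% of all genes were higher and 17.6% lower at 12-h light, and the counts for skeletal muscle, heart and ionocytes lay near these shares. Without TKO dark, all 6 exocrine pancreas markers were higher at 12-h light, with a median of 0.33 log2, and 4 of 5 red blood cell markers were lower, with a median of -0.99. Of the liver markers 3 of 6 were lower, of skeletal muscle 2 of 10 were lower, of heart 1 of 5 was higher and 1 lower, of ionocytes 1 of 6 was higher and 1 lower, and of neurons 0 of 5 passed. The part of these in the light differences of the chain was not tested.

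The genotype comparisons asked whether the knockouts differed from WT larvae over the 3 lightings. On 9 arrays, 2 of the 89 genes were higher in DKO than in WT larvae, against 5.06% of all genes, and 0 lower, against 3.27%. The 2 were ndufs8b, by 1.33 ± 0.14 log2 (limma, adjusted p = 0.00403), and the accessory subunit ndufa12, by 0.44 ± 0.07 (adjusted p = 0.0128). Both had dim signals. ndufs8b lay between -4.67 and -2.38 on the arrays, and ndufa12, with 1 probe, between -3.75 and -3.27. The median of the chain was -0.14 log2, and -0.03 over all genes. It was 0.02 without DKO dark, and the call of ndufa12 was lost without any one of the DKO or WT arrays, while ndufs8b kept its call. Without TKO dark, which narrows the spread left by the model, 4 genes were higher and 20 lower in DKO larvae, against 10.8% and 12.7% of all genes, with the median still at -0.14. By complex, 6 of 18 ATP synthase genes, 7 of 15 complex IV genes and 6 of 37 complex I genes were lower. In complexes II and III 0 genes passed, on values averaged over probes. The probes of uqcrb disagreed in direction, as did those of uqcrc1 and of sdha. For uqcrb in darkness 1 probe was at 2.92 in DKO and 2.51 in WT larvae. The others were at 4.9 against 5.21 and at 4.99 against 5.08.

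atp5mea, one of the 2 genes for subunit e of ATP synthase, had the largest lower value. It was at 1.69, 1.74 and 1.19 in DKO larvae, against 2.97, 2.27 and 2.63 in WT larvae, and all DKO arrays lay below all WT arrays. The difference was -1.09 ± 0.37 log2 on 9 arrays (limma, adjusted p = 0.136) and -1.09 ± 0.18 without TKO dark (adjusted p = 0.0138). Its 2 probes gave -1.82 and -0.75 for DKO dark over WT dark. cox6a2, the muscle isoform in mammals, was at 1.41, 1.6 and 1.47 in DKO larvae, against 2.28, 2.05 and 2.16 in WT larvae, again without overlap. Its difference was -0.67 ± 0.09 without TKO dark (limma, adjusted p = 0.00724) and -0.67 ± 0.22 on 9 arrays (adjusted p = 0.129). atp5mj, a small membrane subunit of ATP synthase, was at 3.24, 3.04 and 2.7 in DKO larvae, against 3.69, 3.39 and 3.47 in WT larvae, or -0.52 ± 0.09 without TKO dark (limma, adjusted p = 0.0137). The other lower genes without TKO dark differed by 0.19 to 0.42 log2, among them ndufa7, cox7a2a, ndufaf1, ndufs3 and atp5if1a.

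Higher in DKO larvae was ndufa3, an accessory subunit of complex I, at -0.26, -0.35 and -0.31, against -0.79, -0.88 and -0.77 in WT larvae. The groups did not overlap, and the difference was 0.51 ± 0.05 log2 without TKO dark (limma, adjusted p = 0.00254) and 0.51 ± 0.13 on 9 arrays (adjusted p = 0.0629). cox6b2, which mammals use in testis, was higher by 0.29 ± 0.06 without TKO dark (limma, adjusted p = 0.0224), and by 0.29 ± 0.26 on 9 arrays (adjusted p = 0.556). Without TKO dark, liver markers were 1 of 6 higher (tfa, by 0.48 log2) and 2 of 6 lower (with fabp10a at -0.68 log2), skeletal muscle 1 of 10 higher and 1 lower, heart 2 of 5 higher, exocrine pancreas 2 of 6 and ionocytes 1 of 6 lower, and neurons and red blood cells 0 of 5 each. Of all genes, 10.8% were higher and 12.7% lower in that fit. The part of these markers in the differences of the chain was not tested.

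In TKO larvae on 9 arrays, 4 genes were higher and 1 lower than in WT larvae, against 7.22% and 11.1% of all genes. The 4 were all of complex I, with ndufs8b at 0.64 ± 0.14 log2, ndufa3 at 0.59 ± 0.13, ndufa1 at 0.36 ± 0.08 and ndufa12 at 0.3 ± 0.07 (limma, adjusted p = 0.0301, 0.0275, 0.029 and 0.0303), and the alpha subunit atp5fa1 was lower by 0.3 ± 0.07 (adjusted p = 0.0393). Of these, ndufs8b and ndufa12 had dim signals, and the 2 probes of ndufa1 gave -0.26 and 0.96 for TKO dark over the other arrays. The count was 0 without any one of the WT arrays or DKO 12-h light, and 1 without DKO 3-h light or either TKO light array. The median of the chain was 0.24 log2, and -0.08 without TKO dark, so the positive median rests on that array. Without it, TKO larvae entered the model by their 3-h and 12-h light arrays only. In that fit 6 genes were higher and 9 lower, against 9.22% and 14.0% of all genes, and all 5 genes called on 9 arrays were among them.

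The comparisons of DKO and TKO larvae share the WT arrays, so their values are not independent. atp5mea was at 1.38 and 1.63 in TKO larvae at 3-h and 12-h light, against 2.27 and 2.63 in WT larvae, but at 3.39 in TKO dark, against 2.97 in WT dark. Without TKO dark the difference was -1.0 ± 0.22 log2 (limma, adjusted p = 0.028). cox6a2 and atp5mj differed by -0.73 ± 0.11 and -0.59 ± 0.1 (limma, adjusted p = 0.0104 and 0.0162), also with TKO dark above WT dark. sdhda, a membrane anchor paralog, was lower by 0.34 log2 (limma, adjusted p = 0.045). Averaged over probes, the catalytic genes sdha and sdhb differed in neither knockout by more than 0.04 log2 in either fit. The probes of sdha disagreed in direction, so its average does not show that sdha was unchanged. At 3-h light 1 probe was at 3.57 in DKO and 3.63 in TKO larvae, against 3.35 in WT larvae. Another was at 1.86 in both knockouts, against 2.11. These 2 probes kept their directions under each lighting. The remaining probe was at -1.65 in both knockouts at 3-h light, against -1.58. In the fit without TKO dark, 4 of 10 skeletal muscle, 5 of 6 exocrine pancreas and 2 of 5 neuron markers were lower in TKO than in WT larvae. Liver markers were 2 of 6 lower and 1 higher, heart 1 of 5 lower and 1 higher, and red blood cells and ionocytes 0. Of all genes, 14.0% were lower and 9.22% higher in that fit. The part of these markers was not tested.

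**Figure D5:**
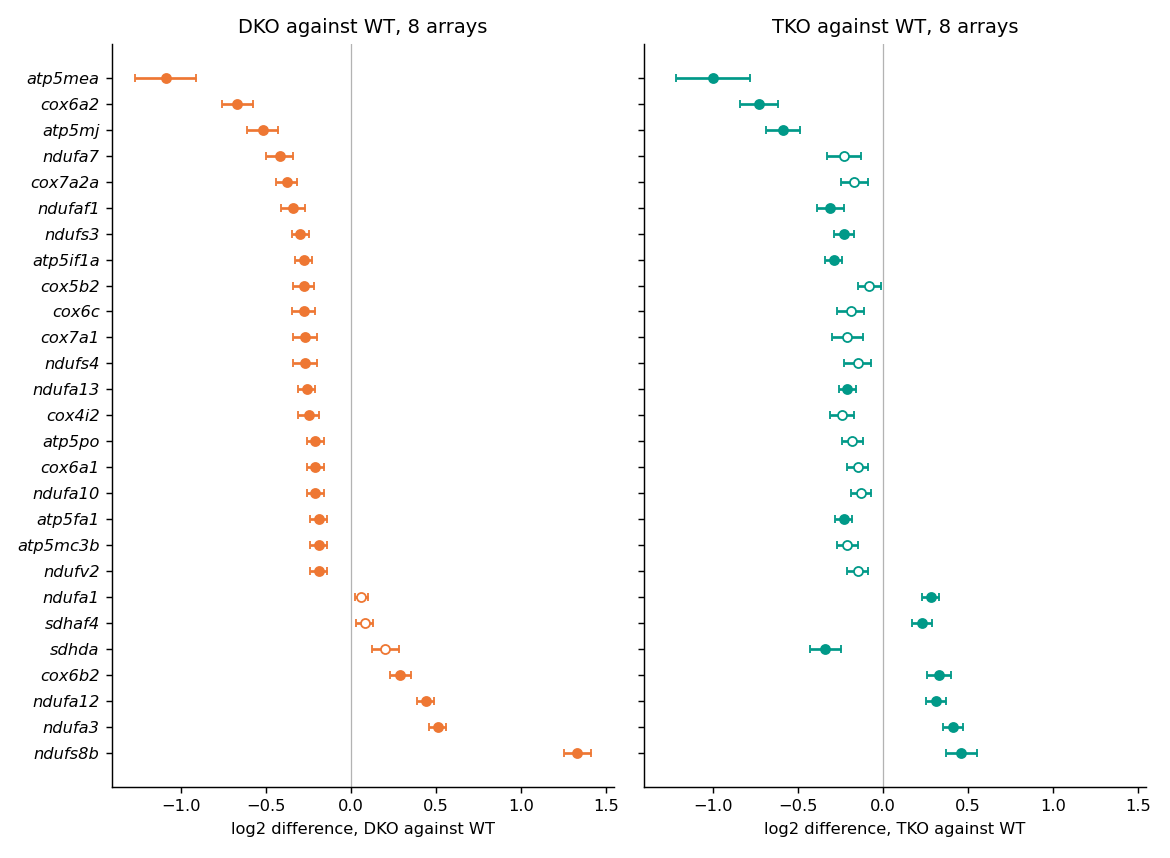
Log2 difference from WT larvae (x axis, ± SE) in the limma fit of the 8 arrays without TKO dark, for each gene called in DKO or TKO larvae. Filled points passed an adjusted p of 0.05 in that comparison; atp5mea, cox6a2 and atp5mj lie lowest in both knockouts, at -1.09, -0.67 and -0.52 in DKO and -1.0, -0.73 and -0.59 in TKO larvae.

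Between TKO and DKO larvae 0 of the 89 genes passed in limma on 9 arrays, against 1.13% of all genes, with a median of 0.37 log2 that was 0.07 without TKO dark. Without that array ndufs8b alone passed, lower in TKO larvae by 0.87 ± 0.09 log2 (limma, adjusted p = 0.0187), against 0.906% of all genes lower. On 9 arrays the largest values were -0.69 ± 0.14 for ndufs8b and 0.79 ± 0.34 for ndufc1 (adjusted p = 0.0999 and 0.244).

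The DKO 12-h light array was the lowest of the 9 for 63 of the 89 genes, against 18.6% of all genes. Its ratio to WT 12-h light had a median of -0.24 log2 over the chain and -0.06 over all genes. By at least 2-fold, ndufs8b was higher and atp5mea lower, against 1.39% and 0.869% of all genes, and by at least 1.5-fold 1 gene was higher and 4 were lower, against 4.26% and 3.72%. The median was -0.26 for ATP synthase, -0.29 for complex IV, -0.21 for complex I, -0.13 for complex III and 0.04 for complex II. With 1 array on each side, these ratios have no test. DKO 12-h light was at position 4 of its slide and WT 12-h light at position 3, so the position differed as well. TKO 12-h light over WT 12-h light had a median of -0.10, with 3 genes lower by at least 1.5-fold, against 3.64% of all genes, and medians of -0.12 for ATP synthase and -0.11 for complex IV. ATP content was assayed in the study in larvae that had been given 12-h light and then kept in darkness for 12 h. The paper reported significantly lower ATP levels in DKO and TKO than in WT larvae. That assay is not analysed here, and the arrays sample another time, given for DKO larvae only as 12 h after light onset. The RNA levels are therefore set beside it only as the state of the transcripts at sampling.

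Other genes of energy metabolism, were counted from lists of known members, with 18.5% of all genes higher and 17.6% lower at 12-h light without TKO dark. In that fit 36 of 65 mitochondrial ribosomal protein genes were lower and 1 higher, and of 83 cytosolic ribosomal protein genes 0 passed. Of 33 assembly factors outside the prefixes 9 were lower and 7 higher, and of 16 genes for cytochrome c, cytochrome c1, electron-transferring flavoproteins and ubiquinone synthesis 4 were lower and 2 higher. Of 20 genes of the citric acid cycle and pyruvate dehydrogenase 4 were lower and 0 higher, and of 31 glycolytic genes 4 were lower and 4 higher. On 9 arrays idh3b, mdh1ab and pdha1b of the citric acid cycle and pyruvate dehydrogenase list fell by 0.29, 0.46 and 0.57 log2. Of all genes 14.1% were lower on 9 arrays. The list includes mdh1ab although its enzyme is the cytosolic malate dehydrogenase, outside the cycle. Of 19 carriers, porins, kinases and uncouplers 4 were higher and 3 lower, with the uncoupling protein genes ucp1 and ucp3 up by 1.87 and 1.14 log2 on 9 arrays (limma, adjusted p = 0.00118 and 0.00897). Of 12 regulators tfam and ssbp1 fell by 0.6 and 0.88 log2 on 9 arrays, where 14.1% of all genes were lower. The first packages mitochondrial DNA and the second binds it as a single strand. Without TKO dark both passed again, and tfb1m of this list rose by 0.2 log2 (limma, adjusted p = 0.0346). In DKO larvae without TKO dark, 19 of 83 cytosolic ribosomal protein genes were lower and 1 higher than in WT larvae, where 12.7% of all genes were lower and 10.8% higher. In the same fit 8 of 31 glycolytic genes were lower and 4 higher than in WT larvae. There gpib was up by 3.11 log2 and pklr down by 2.29 log2 (limma, adjusted p = 0.000235 and 0.000154). For gpib and pklr, TKO larvae did not share these sizes, with gpib at -2.93 log2 in TKO against DKO larvae. pklr was at -0.66 log2 in TKO against WT larvae and at 1.63 log2 in TKO against DKO larvae. The paper named pgm1 and hkdc1 among glycolytic genes lower in both knockouts. It took them from a cluster analysis of levels under light relative to WT dark, another measure than the fits here. In the fit without TKO dark, pgm1 was at -0.34 log2 in DKO and -0.48 in TKO against WT larvae (limma, adjusted p = 0.00663 and 0.00529). Against WT larvae hkdc1 passed only for TKO larvae on 9 arrays, at -0.5 log2 (limma, adjusted p = 0.0344). A comparison that did not pass does not show that hkdc1 was unchanged.

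The genes of the chain followed a shared pattern over arrays. Over the 8 arrays other than TKO dark, 40 of the 89 genes had a Pearson correlation above 0.9 with the median profile of the chain, against 3.8% of all genes. Each gene is itself part of that median, and all share the scaling of each array, so this is a description. Correlations below 0 were found for 14 genes on the 8 arrays, with ndufaf5 and sdha at -0.75, sdhb at -0.7 and sdhaf2 at -0.59 among them. The genes whose probes disagreed by over 1 log2 in a ratio were atp5mea, ndufa1, ndufs8b and the assembly factors ndufaf2 and ndufaf7. For TKO dark over the other 8 arrays the 2 probes of ndufaf2 gave 0.0 and 1.3.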

How the data were processed

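RNA was labelled with Cy3 by the authors and hybridised to 1-colour Agilent arrays, 1 per combination of genotype and lighting. The authors read the arrays with Agilent Feature Extraction 11.5.1.1, whose header names the build danRer7, and deposited the intensity of each spot after background subtraction, without normalization between arrays. They also deposited uncorrected median intensities of spots and background, and flags, given as scores of 0 or 1, that mark detected, saturated and outlying spots. The intensities of the deposited table are the same signals times 1 constant per array. The software named in the methods is not the one in the file headers.

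From these, log2 signals minus the 75th percentile of each array were computed. Outlying spots (1 to 8 per array) were left out, no spot was saturated, spots of a probe and probes of a gene were averaged, and 26094 of 43603 probes were paired with a symbol through RefSeq accessions (assembly GRCz12tu, names only). The number of arrays limits the precision. The SD between spots is over 38 probes spotted more than once. limma 3.58.1 in R 4.3.3 fitted genotype and lighting on 12915 genes with a probe well above background on at least 3 arrays, with 4 residual degrees of freedom and a prior of 2.6. The model of the light response had 3. Calls have a Benjamini-Hochberg adjusted p under 0.05 over all genes. Without TKO dark, the light terms rest on the dark arrays of DKO and WT larvae, and the TKO terms on the TKO arrays of 3-h and 12-h light. Ratios of single arrays have no test. The limma step was tested on simulated data. Python 3.11.15 with pandas 2.3.3 and numpy 2.4.6 made the counts and matplotlib 3.10.9 the figures.

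The genes, lists, markers and role groups were chosen with earlier results of these data known, and the role groups after the values were seen. The rps prefix of cytosolic ribosomal proteins leaves out the rps6k kinases. Named genes are, in each comparison, those called (up to 10 per direction, or the 3 largest values where fewer than 3 passed), a fixed set of reference subunits and isoforms (a subunit of the set is not reported here), assembly factors, and genes whose probes differ by over 1 log2. Others are examples of a group, picked after their values were seen. Alternatives were quantile normalization, median scaling, the deposited table, normexp (offset 50, on median signals) with quantile normalization, no filter, genes well above background on all 9 arrays, limma's trend and robust options, the brightest probe, the light arrays alone, a 1.5-fold threshold, and each array left out in turn. No genome of the files' build and no sequence table was used, so no sequence or position is given.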

Additional observations from a re-analysis of the deposited data

Results flagged for a closer look

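For the complex IV isoform cox4i2 the ratios of light to darkness had opposite signs in the genotypes. In DKO larvae the log2 ratios of 3-h light and of 12-h light to darkness were 0.5 and 0.28, in TKO larvae -0.22 and -0.43, and in WT larvae 0.48 and 0.44. In the model of the light response with both lit arrays together, the difference between TKO and WT larvae was -0.79 ± 0.2 log2 and did not pass (limma, adjusted p = 0.0925). All 15 complex IV genes had a negative difference there, between -1.33 and -0.65. All TKO ratios use the TKO dark array, where cox4i2 was at 2.32, against 1.58 in DKO dark and 1.79 in WT dark.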

How the results depend on the processing

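No paired analysis was possible because the labels carry no replicate numbers to pair by. The terms of the model already match arrays by genotype and by lighting. No result changed direction under another normalization, filter, probe rule or variance option, apart from the median of TKO against WT larvae, which was -0.08 on the light arrays alone. That of TKO against DKO larvae was 0.07 there. The count of genes called for DKO against WT was 5 on the light arrays alone and 8 with normexp. For TKO against WT it was 3 in the deposited table and 14 with normexp, and for 3-h light 12 with normexp and 7 with quantile normalization. For 12-h against 3-h light it was 0 with the brightest probe, the deposited table, median scaling or no filter, and 2 with normexp or with the trend and robust options. For the TKO light response it was 29 over genes above background on all 9 arrays, 52 with median scaling, 30 with normexp and 57 with the trend and robust options. At a 1.5-fold threshold the single-array counts were 56 for TKO over WT dark, 65 for TKO over DKO dark, 3 for TKO over WT at 12-h light and 5 for DKO over WT at 12-h light. The excess of TKO dark was 0.77 with quantile normalization and 0.78 with normexp. The cause of these changes was not tested, other than for the looser fold threshold. For single genes, 241 repeats under other settings kept the call and 22 lost it, and with 1 array left out 115 kept it and 173 lost it.

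Leaving out each array in turn gave 1 to 24 genes called for DKO against WT, 0 to 15 for TKO against WT, 0 to 1 for TKO against DKO, 3 to 50 for 12-h light, 0 to 18 for 3-h light, 0 to 4 for 12-h against 3-h light and 0 to 42 for the TKO light response, with 0 throughout for DKO. The model of the light response could not be fitted for a genotype without its dark array. The highest counts of the first 6 came without TKO dark. The medians ranged from -0.25 to 0.02, -0.08 to 0.39, 0.07 to 0.52, -0.67 to -0.23, -0.62 to -0.2 and -0.19 to 0.09 for the first 6 in the same order. With 1 array per condition, differences near 0.207 log2 between 2 arrays cannot be told from the spread of spots.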
